A study of Homo sapiens with 6 samples.

Results

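The 33 genes described here act in homologous recombination or, as Fanconi anaemia genes outside the core complex, in the repair of DNA interstrand crosslinks. They were chosen by function, with earlier results of these data known, out of 58219 gene identifiers. All 33 were found in the tables, and all 33 were among the 15765 genes tested after low counts were removed. They were measured in U2OS cells, a human osteosarcoma line, as 3 libraries that received a short hairpin RNA (shRNA) against E4F1 and 3 libraries that received a scramble shRNA (control shRNA). Both groups were infected for 24 h and kept in puromycin for 48 h, and RNA was taken 72 h after infection. The labels name 3 independent pools and do not give the hairpin sequences or their number, so changes due to E4F1 and other effects of the hairpin cannot be told apart.

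Homologous recombination repairs a broken DNA molecule by copying an intact one. Nucleases first resect the end to single-stranded DNA, BRCA1, PALB2 and BRCA2 help to coat it with a protein filament, accessory factors and translocases assist strand exchange, and the joined molecules are then dissolved or cut apart. At interstrand crosslinks the Fanconi pathway places ubiquitin on FANCD2 and FANCI, which brings in nucleases and hands the break to recombination. Many of these genes are transcribed most strongly in S and G2 phase. U2OS cells lack telomerase and maintain telomeres by recombination. E4F1 is a zinc finger transcription factor with a ubiquitin ligase activity.

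E4F1 had 51, 53 and 41 reads in E4F1 shRNA libraries, against 233, 286 and 297 in control libraries, a log2 fold change of -2.57 (edgeR adjusted p = 7.65e-10). Libraries held 14947085 to 16892139 reads in genes, and the 33 genes had 35 to 3885 reads per gene and library, with at least 100 in every library for 31 of them. The mesenchymal marker VIM was the highest of its list of 8, whose summed level was 5321 to 5536 CPM (reads scaled to the size of the library) in E4F1 shRNA libraries and 5855 to 6057 CPM in control libraries. Of these 8 markers 1 had a mean under 1 CPM. TERT, the telomerase gene, had 0 or 1 read per library. Summed levels were 14.6 to 16.7 CPM in E4F1 shRNA libraries and 14.3 to 15.7 CPM in controls for 5 epithelial markers. The highest of these was CDH1, at a mean of 6.69 CPM over all 6 libraries. For 5 blood markers the sums were 1.42 to 2.56 CPM in E4F1 shRNA libraries and 2.14 to 2.41 CPM in controls. PTPRC was the highest of the 5, at a mean of 2.06 CPM, and 2 were at 0 throughout, CD3E among them. For 4 endothelial markers the sums were 1.71 to 2.08 CPM in E4F1 shRNA libraries and 1.73 to 2.53 CPM in controls, with VWF the highest at a mean of 1.23 CPM. The part of these markers in the results below was not tested.

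Sequence near the start sites is shown for the genes that share a short motif there, because E4F1 is a DNA-binding factor. The motif TGACGT, a core that E4F1 sites share with ATF and CREB sites, was searched on both strands from 250 bases before to 50 bases after each start in RefSeq (GRCh38.p14). Of the 33 genes 28 had a window, and 8 of these held the motif. The windows are given 5′ to 3′ on the strand of the gene, with the motif on either strand in capitals. Where it overlaps its own reverse complement, both are in capitals. For FANCD2 the match nearest its start, at -46, is shown, and another at -176 is not.
EXO1, chr1:241848140-241848169, plus strand: ggatacgcgtTGACGTCAcatcctctgggc
XRCC2, chr7:152676257-152676286, minus strand: cgcggaagtcTGACGTCAcaggaactgggg
RAD51C, chr17:58692560-58692589, plus strand: ccgctttacgtcTGACGTCAcgccgcacgc
BRCA1, chr17:43125548-43125577, minus strand: ctctttccttttACGTCAtccgggggcaga
BRCA1, chr17:43170462-43170491, minus strand: cagcaattactgTGACGTaataagccgcaa
FANCD2, chr3:10026379-10026408, plus strand: gaagttggcgtcACGTCAtggcgcgcctcg
RMI1, chr9:83980312-83980341, plus strand: tggcccgaggccACGTCAatcaaggcgacg
RBBP8, chr18:22933319-22933348, plus strand: ggaactcccgcgTGACGTcgcgcgggctcc
UBE2T, chr1:202342137-202342166, minus strand: tggactgccggaTGACGTctcagggttcag

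The 33 genes were mostly higher in E4F1 shRNA cells, each by a small amount. At an adjusted p of 0.05 (edgeR quasi-likelihood test, Benjamini-Hochberg over all genes tested), 20 of 33 rose, which is 60.6%, where 14.4% of all genes tested rose. A further 2, RAD52 and TOP3A, fell, which is 6.06%, where 14.4% of all genes tested fell. The other 11 did not pass. The 20 rises were between 1.11-fold and 1.37-fold, and the median log2 fold change of the 33 was 0.25, beside -0.0096 over all genes tested. The number that rose was as low as 12 with 1 library left out, in fits where 10.8% or 9.94% of all genes tested rose. With the mean of 70 cell cycle genes in the edgeR fit it was 0 (2 up at an unadjusted p under 0.05). In that fit 3.74% of all genes tested rose, and the median of the 33 was 0.052. With all 6 libraries and group as the sole term, 28.9% of genes tested changed. Every E4F1 shRNA library lay above every control library for 17 of the 33 (51.5%), where 20.7% of all genes tested had this order. The reverse order held for 2, where 21.1% of all genes tested had it.

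**Figure D1:**
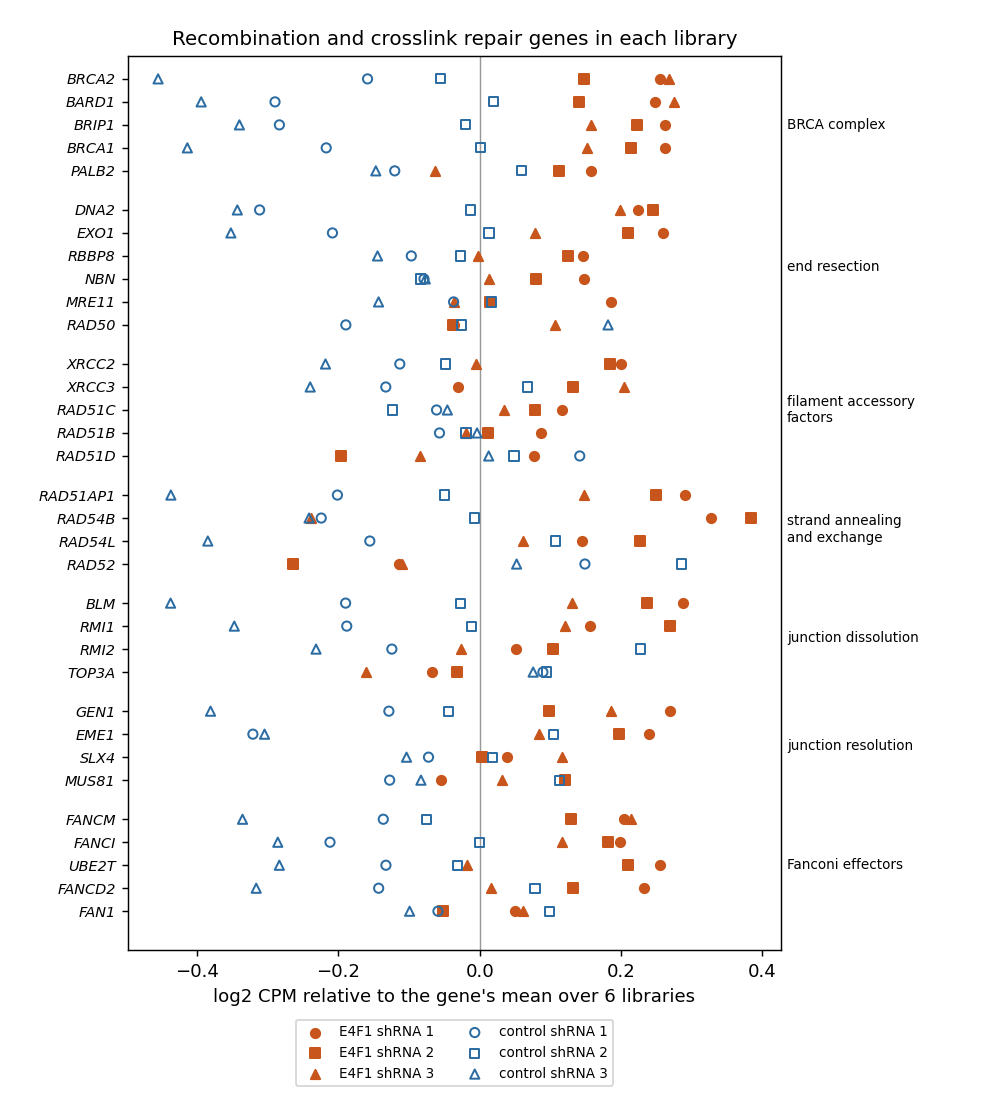
Level of each of the 33 genes in each library, as log2 CPM relative to the mean of that gene over the 6 libraries, grouped by role. Filled symbols are E4F1 shRNA libraries 1 to 3 and open symbols control libraries 1 to 3. Control library 2 (open squares) lies nearest to the E4F1 shRNA libraries for most genes that rose, while RAD52 and TOP3A run the other way.

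The 5 genes of the BRCA assembly prepare resected DNA for strand exchange, and 4 of them rose. BRIP1, the helicase that binds BRCA1 (ENSG00000136492.8, GRCh38 chromosome 17, 61681266 to 61863521, minus strand), had 111, 108 and 103 CPM in E4F1 shRNA libraries, against 76.3, 91.6 and 73.3 CPM in control libraries. All E4F1 shRNA values were above all control values. The means were 108 ± 3.97 CPM in E4F1 shRNA cells and 80.4 ± 9.79 CPM in control cells (SD, n = 3 each), a difference of 0.42 on the log2 scale (SE 0.07, edgeR adjusted p = 0.000364).

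BRCA2, a mediator of filament assembly on single-stranded DNA (chromosome 13, 32315474 to 32400266), had 89.3, 82.9 and 90.1 CPM in E4F1 shRNA libraries, against 67.0, 72.0 and 54.6 CPM in control libraries (log2 0.44, SE 0.08, edgeR adjusted p = 0.00065). BRCA1, the ubiquitin ligase that directs resection and recruits PALB2 (chromosome 17, 43044295 to 43170245), had 119.9, 116 and 111 CPM in E4F1 shRNA libraries, against 86.0, 100.1 and 75.1 CPM in control libraries (log2 0.41, SE 0.08, edgeR adjusted p = 0.000924). In both genes the groups did not overlap, and the control libraries were spread more widely than the E4F1 shRNA libraries. BARD1, the obligate partner of BRCA1, rose by a like amount (log2 0.43, SE 0.09, edgeR adjusted p = 0.00197). PALB2, the bridge between BRCA1 and BRCA2, averaged 31.5 ± 2.502 CPM in E4F1 shRNA cells and 28.6 ± 2.27 CPM in control cells (SD, n = 3 each) and did not pass (log2 0.14, edgeR adjusted p = 0.231).

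Of the 6 genes of end resection, 4 rose: the genes of the long-range nucleases DNA2 and EXO1, and also RBBP8 and NBN. DNA2, a nuclease and helicase (chromosome 10, 68414064 to 68472121), had 68.3, 69.3 and 67.1 CPM in E4F1 shRNA libraries, against 47.1, 58.0 and 46.1 CPM in control libraries (log2 0.44, SE 0.08, edgeR adjusted p = 0.000457). The exonuclease gene EXO1 had 86.4, 83.4 and 76.1 CPM in E4F1 shRNA libraries, against 62.4, 72.8 and 56.5 CPM in control libraries (log2 0.36, SE 0.08, edgeR adjusted p = 0.00275). The groups did not overlap in either, and control library 2 was the highest control in both.

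RBBP8, which encodes CtIP and starts resection, had 124, 122 and 112 CPM in E4F1 shRNA libraries, against 105, 109.8 and 101 CPM in control libraries (log2 0.18, edgeR adjusted p = 0.0269, and up to 0.11 with 1 library left out). NBN, the regulatory subunit of the complex of MRE11, RAD50 and NBN, averaged 141 ± 6.59 CPM in E4F1 shRNA cells and 126 ± 0.324 CPM in control cells (SD, n = 3 each, log2 0.16, edgeR adjusted p = 0.0311, and up to 0.137 with 1 library left out). Both had groups that did not overlap, with rises below those of DNA2 and EXO1. MRE11, the nuclease of that complex, did not pass (log2 0.11, SE 0.07, edgeR adjusted p = 0.257).

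RAD50, the ATPase of the complex, had 3.86, 3.86 and 4.26 CPM in E4F1 shRNA libraries, against 3.47, 3.89 and 4.49 CPM in control libraries. This level is uncertain: 79.7% of its annotated exonic bases are shared with another annotated gene on the same strand (ENSG00000283782.1), whose reads numbered 1 to 4 per library. In the deposited layout, reads that fit several genes stand in a line of their own and in no gene. RAD54B shares 59.1% of its exonic bases with FSBP, so its value is uncertain for the same reason.

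Of RAD51B, RAD51C, RAD51D, XRCC2 and XRCC3, a family of 5 accessory factors that stabilise the filament, 2 rose. XRCC2 had 33.4, 33.1 and 28.99 CPM in E4F1 shRNA libraries, against 26.9, 28.2 and 25.0 CPM in control libraries (log2 0.25, SE 0.08, edgeR adjusted p = 0.0246, and up to 0.107 with 1 library left out). RAD51C had 148, 144 and 139.9 CPM in E4F1 shRNA libraries, against 131, 125 and 132 CPM in control libraries (log2 0.15, SE 0.05, edgeR adjusted p = 0.0364). RAD51C and NBN were the 2 genes for which control library 2 was the lowest control. The adjusted p of RAD51C was 0.0578 without that library and at most 0.125 with another left out. XRCC3, the partner of RAD51C, had 17.1, 19.2 and 20.2 CPM in E4F1 shRNA libraries, against 16.0, 18.3 and 14.8 CPM in control libraries, and the groups overlapped (log2 0.20, edgeR adjusted p = 0.146, and 0.0246 without control library 2). RAD51B had a log2 fold change of 0.05 and RAD51D of -0.13, and neither passed (edgeR adjusted p = 0.71 and 0.284).

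The 4 genes of strand annealing and exchange went both ways. RAD51AP1, which stimulates strand invasion (ENSG00000111247.14, chromosome 12, 4538798 to 4560048, plus strand), had the largest log2 fold change of the 33 genes in this fit. It had 84.3, 81.9 and 76.3 CPM in E4F1 shRNA libraries, against 59.9, 66.6 and 50.9 CPM in control libraries. The means were 80.8 ± 4.11 CPM in E4F1 shRNA cells and 59.1 ± 7.87 CPM in control cells (SD, n = 3 each), 1.37-fold (log2 0.45, SE 0.08, edgeR adjusted p = 0.000472). The translocase gene RAD54L had 41.1, 43.5 and 38.8 CPM in E4F1 shRNA libraries, against 33.4, 40.1 and 28.5 CPM in control libraries (log2 0.27, edgeR adjusted p = 0.0402, and up to 0.195 with 1 library left out). Control library 2 lay within the E4F1 shRNA range for RAD54L, and the other controls lay below it. RAD54B, a related translocase, had a log2 fold change of 0.33 with an SE of 0.21 and did not pass.

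RAD52 anneals single strands and in human cells acts largely beside the BRCA2 route. The gene (ENSG00000002016.17, chromosome 12, 912077 to 990053, minus strand) had 14.7, 13.2 and 14.7 CPM in E4F1 shRNA libraries, against 17.6, 19.4 and 16.5 CPM in control libraries. All E4F1 shRNA values were below all control values. The means were 14.2 ± 0.854 CPM in E4F1 shRNA cells and 17.8 ± 1.46 CPM in control cells (SD, n = 3 each), a difference of -0.33 on the log2 scale (SE 0.10, edgeR adjusted p = 0.0165, 0.0594 without control library 2 and at most 0.0948 with another library left out).

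The complex of BLM, TOP3A, RMI1 and RMI2 dissolves double Holliday junctions, and its subunit genes did not move together: 2 rose, 1 fell and 1 did not pass. The helicase gene BLM (chromosome 15, 90717327 to 90816165) had 67.1, 64.8 and 60.2 CPM in E4F1 shRNA libraries, against 48.2, 54.0 and 40.6 CPM in control libraries (log2 0.43, SE 0.08, edgeR adjusted p = 0.00112). The scaffold gene RMI1 had 35.0, 37.9 and 34.2 CPM in E4F1 shRNA libraries, against 27.6, 31.2 and 24.7 CPM in control libraries (log2 0.36, SE 0.08, edgeR adjusted p = 0.00443). For both the groups did not overlap and control library 3 was the lowest.

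The topoisomerase gene TOP3A (chromosome 17, 18271428 to 18315007) had 54.1, 55.5 and 50.7 CPM in E4F1 shRNA libraries, against 60.3, 60.5 and 59.7 CPM in control libraries. The 3 control values lay within 1 CPM of each other and above all E4F1 shRNA values (log2 -0.17, SE 0.06, edgeR adjusted p = 0.0425). That call was lost without any 1 of the 6 libraries, with adjusted p up to 0.17. RMI2 had 15.7, 16.3 and 14.9 CPM in E4F1 shRNA libraries, against 13.9, 17.7 and 12.9 CPM in control libraries, where control library 2 was the highest of all 6 (log2 0.07, edgeR adjusted p = 0.678).

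Of the 4 genes that cut joined molecules apart, 2 rose. GEN1, a Holliday junction resolvase, had 59.3, 52.7 and 56.0 CPM in E4F1 shRNA libraries, against 45.0, 47.7 and 37.8 CPM in control libraries, without overlap (log2 0.36, SE 0.08, edgeR adjusted p = 0.00268). EME1, a partner subunit of MUS81, had 20.5, 19.9 and 18.4 CPM in E4F1 shRNA libraries, against 13.9, 18.6 and 14.1 CPM in control libraries (log2 0.33, SE 0.11, edgeR adjusted p = 0.0299, and up to 0.125 with 1 library left out). For EME1, control library 2 again overlapped the E4F1 shRNA range. Over all libraries EME1 had 2484 reads on the opposite strand, against 1695 on its own strand. When strand was ignored its call was lost (edgeR adjusted p = 0.0648). SLX4, a scaffold for nucleases, had 34.7, 33.8 and 36.6 CPM in E4F1 shRNA libraries, against 32.1, 34.2 and 31.4 CPM in control libraries (log2 0.10, edgeR adjusted p = 0.293). MUS81, the catalytic subunit, averaged 19.3 ± 1.18 CPM in E4F1 shRNA cells and 18.5 ± 1.68 CPM in control cells (SD, n = 3 each) and did not pass (log2 0.06, edgeR adjusted p = 0.658).

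Of the 5 genes placed in the Fanconi group here, which does not hold every Fanconi gene among the 33, 4 rose. FANCI, which pairs with FANCD2 in a clamp on DNA (chromosome 15, 89243949 to 89317261), had 233, 231 and 221 CPM in E4F1 shRNA libraries, against 176, 203 and 167 CPM in control libraries (log2 0.33, SE 0.06, edgeR adjusted p = 0.00126). FANCM, the translocase that binds stalled forks, had 48.0, 45.6 and 48.4 CPM in E4F1 shRNA libraries, against 37.9, 39.6 and 33.04 CPM in control libraries (log2 0.36, SE 0.07, edgeR adjusted p = 0.00153). UBE2T, the ubiquitin-conjugating enzyme of the pathway, had 58.8, 57.0 and 48.7 CPM in E4F1 shRNA libraries, against 44.9, 48.2 and 40.5 CPM in control libraries (log2 0.30, SE 0.08, edgeR adjusted p = 0.0099, and up to 0.0589 with 1 library left out). The groups did not overlap for these genes, by a narrow margin in UBE2T. FANCD2, the other part of the clamp, rose less and with overlap (85.0 ± 6.36 CPM in E4F1 shRNA cells and 71.6 ± 9.88 CPM in control cells, SD, n = 3 each, log2 0.25, edgeR adjusted p = 0.0326, and up to 0.154 with 1 library left out). The nuclease gene FAN1 did not pass (log2 0.04, SE 0.07, edgeR adjusted p = 0.73).

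**Figure D2:**
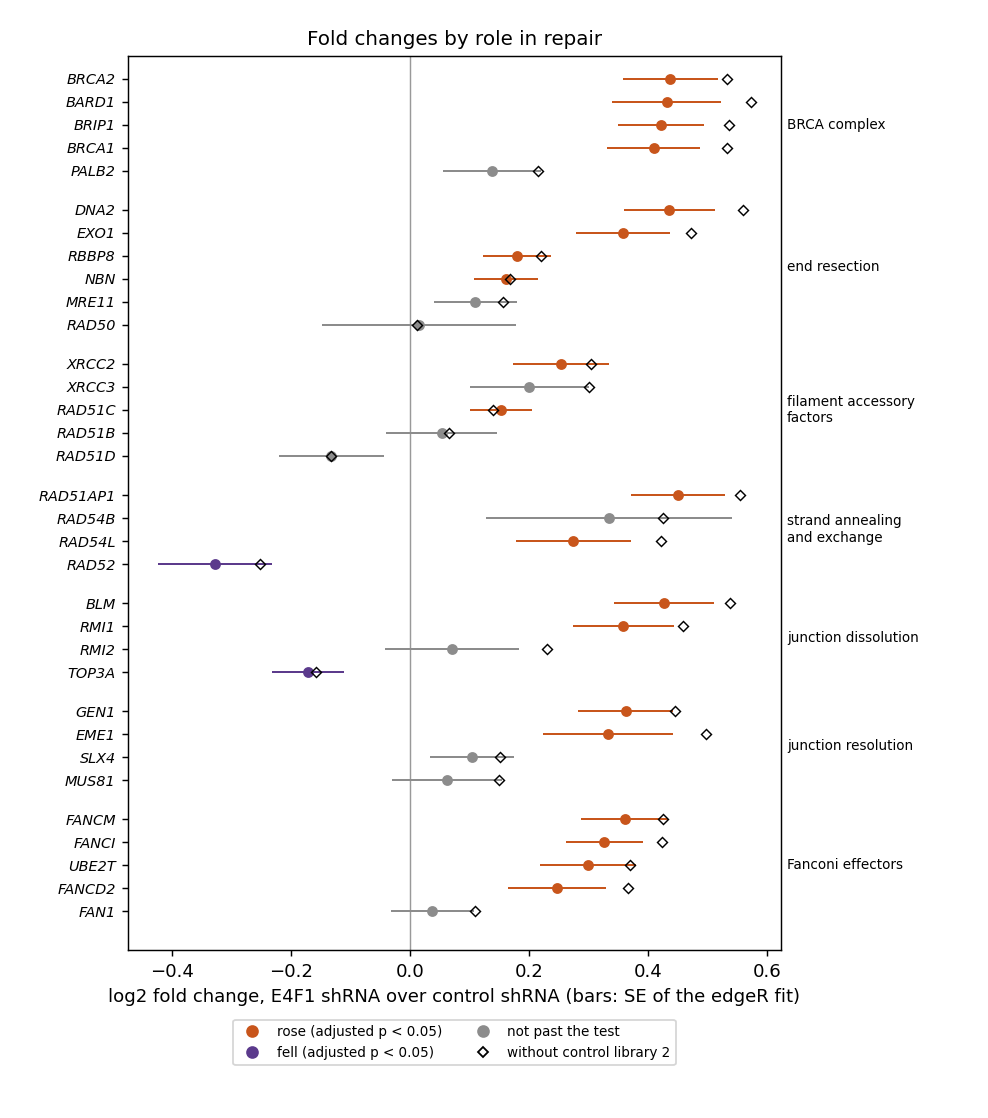
Log2 fold change, E4F1 shRNA over control shRNA, of the 33 genes by role. Circles are the values from all 6 libraries with the SE of the fit as bars, coloured by whether the gene rose, fell or did not pass, and open diamonds are the values without control library 2. Most diamonds lie to the right of their circles, as for RMI2, at 0.07 with all libraries and 0.23 without that control.

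Levels were compared between genes as CPM per kilobase of annotated exon, with all annotated exons of a gene counted. Which transcripts were present was not determined, so differences in level between genes are uncertain. The highest were those of UBE2T, with 33.2 in E4F1 shRNA cells and 26.97 in control cells, RAD51AP1, with 31.6 in E4F1 shRNA cells and 23.1 in control cells, and FANCI, with 29.4 in E4F1 shRNA cells and 23.4 in control cells. Among genes with little shared exon sequence, RAD51B had 1.89 in E4F1 shRNA cells and 1.82 in control cells, RAD51D 1.81 in E4F1 shRNA cells and 1.99 in control cells, and XRCC3 2.51 in E4F1 shRNA cells and 2.18 in control cells. RAD51C, of the same family, stood far above these with 23.7 in E4F1 shRNA cells and 21.4 in control cells. XRCC2, also of that family, lay between, with 6.56 in E4F1 shRNA cells and 5.50 in control cells.

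Each control library gave a different size for the change. The median over the 33 genes of the log2 ratio of mean E4F1 shRNA CPM to a single control was 0.27 for control library 1, 0.16 for control library 2 and 0.42 for control library 3. Over all genes tested these medians were between -0.0092 and -0.0026. All 3 E4F1 shRNA libraries lay above control library 1 for 29 of the 33 genes, above control library 2 for 17 and above control library 3 for 28. Over all genes tested the shares were 34.9%, 32.7% and 37.1%.

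**Figure D3:**
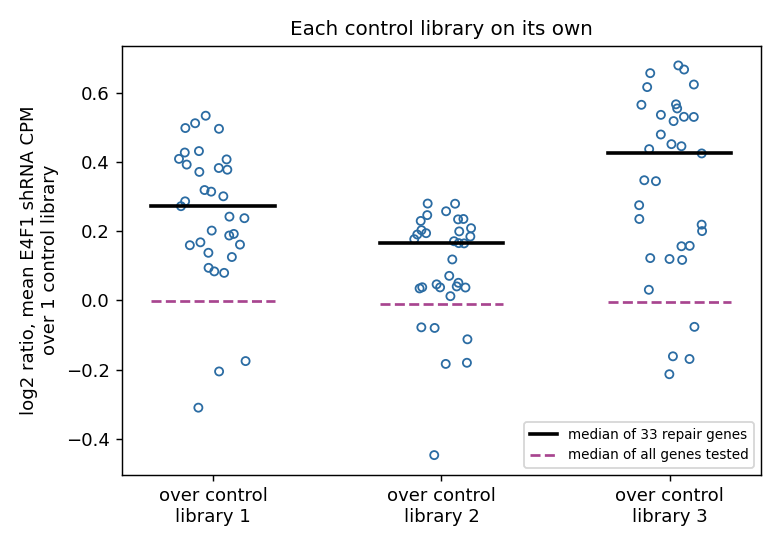
Log2 ratio of the mean E4F1 shRNA CPM to the CPM of 1 control library, for each of the 33 genes (circles), with their median (black line) and the median of all genes tested (dashed line). The circles sit lowest over control library 2, with a median of 0.16, and highest over control library 3, with a median of 0.42.

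The order of the controls was shared by most of the genes. Control library 2 was the highest control for 28 of 33 genes and control library 3 the lowest for 27, where control library 2 was highest for 37.7% and control library 3 lowest for 34.4% of all genes tested. The full order of control library 2 over 1 over 3 held for 26 of 33 genes (78.8%), where 21.3% of all genes tested had it. The median coefficient of variation of the 33 genes was 5.49% in E4F1 shRNA libraries and 10.5% in control libraries, beside 6.47% and 7.78% over all genes tested. Among the E4F1 shRNA libraries, library 3 was the lowest for 22 of 33 genes, where this held for 36.2% of all genes tested.

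The calls depended on which libraries entered. Without control library 2, 20 genes rose (17.6% of all genes tested), of which 19 were the same: RAD51C lost its call (adjusted p = 0.0578) and XRCC3 gained one (0.0246). None fell in that edgeR fit, with 2 down at an unadjusted p under 0.05, where 15.8% of all genes tested fell. The groups then did not overlap, with E4F1 shRNA above, for 27 genes, where 28.4% of all genes tested had this order. The number that rose was 13 without control library 1, where 11.7% of all genes tested rose, and 14 without control library 3, where 10.4% did. It was 12 without E4F1 shRNA library 1 (10.8% of all genes tested), 12 without E4F1 shRNA library 2 (9.94%) and 20 without E4F1 shRNA library 3 (12.9%), so the share of all genes that rose was also lower than 14.4% in these fits. The calls of 12 genes stood with all 6 libraries and without each of them in turn: BARD1, BLM, BRCA1, BRCA2, BRIP1, DNA2, EXO1, FANCI, FANCM, GEN1, RAD51AP1 and RMI1. The other 8 were EME1, FANCD2, NBN, RAD51C, RAD54L, RBBP8, UBE2T and XRCC2.

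Genes of DNA replication and mitosis moved with the repair genes from library to library. Of 37 replication genes 20 rose (54.1%) and the other 17 did not pass, with ORC6 at log2 0.68, RFC4 at 0.85 and RFC5 at 0.51. Of 33 mitosis genes 24 rose (72.7%) and the other 9 did not pass, with SMC2 at log2 0.51, CENPE at 0.43 and CCNA2 at 0.47. Over all genes tested 14.4% rose and 14.4% fell. Relative to the mean of each gene over the 6 libraries, the 33 repair genes lay at 0.15, 0.12 and 0.061 on the log2 scale in E4F1 shRNA libraries and at -0.13, 0.021 and -0.22 in control libraries. Both cell cycle lists together, 70 genes that include none of the 33, lay at 0.17, 0.17 and 0.057 in E4F1 shRNA libraries and at -0.16, 0.043 and -0.28 in control libraries. Both sets had the same order of libraries within the controls, and in both E4F1 shRNA library 3 and control library 2 were the nearest pair between the groups.

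**Figure D4:**
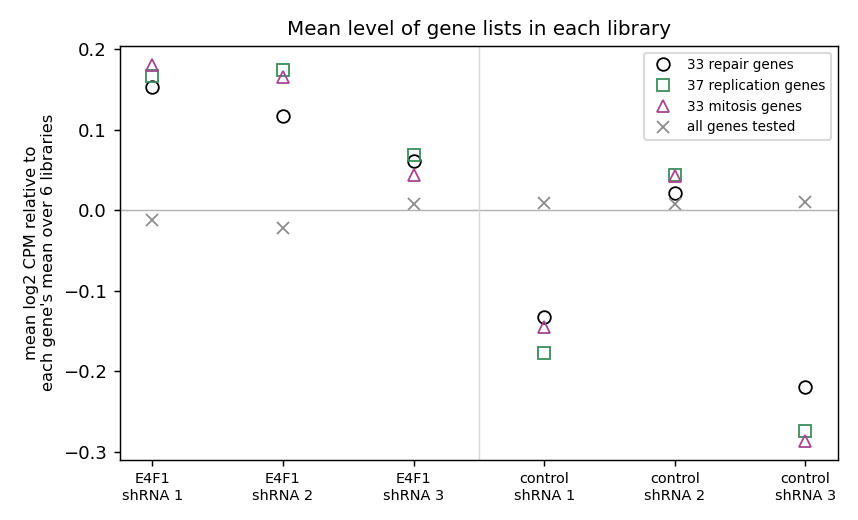
Mean log2 CPM of 4 gene sets in each library, relative to the mean of each gene over the 6 libraries. Circles are the 33 repair genes, squares 37 replication genes, triangles 33 mitosis genes and crosses all genes tested. Control library 2 lies above 0 for the repair, replication and mitosis genes (0.021, 0.043 and 0.042), while control libraries 1 and 3 lie below.

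When the mean of these 70 genes was added to the edgeR fit, 986 genes changed in all (6.25%) and none of the 33 genes rose, with 2 up at an unadjusted p under 0.05, where 3.74% of all genes tested rose. RAD52 still fell (log2 -0.47, edgeR adjusted p = 0.0467), where 2.52% of all genes tested fell. The median log2 fold change of the 33 was 0.052 in that fit, and 21 of them kept a value above 0. All 3 E4F1 shRNA libraries had a higher mean than any control, so the group and the cell cycle genes cannot be fully told apart in this design. In bulk samples, more cells of a phase and more RNA per cell cannot be told apart, nor can fewer cells of a type and less RNA per cell, and no cell cycle phase was measured here.

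The other genes of the pathway were taken from lists chosen by function. The shares of each list are to be read beside all genes tested, of which 14.4% rose and 14.4% fell. Of 12 genes of the Fanconi core complex, which ubiquitinates FANCD2 and FANCI, 4 rose (33.3%) and 2 fell (16.7%). FAAP100, a subunit of its ligase module, had 10.6 ± 0.89 CPM in E4F1 shRNA cells and 28.5 ± 2.92 CPM in control cells (SD, n = 3 each, log2 -1.43, edgeR adjusted p = 2.32e-08), a larger change than any of the 33 genes, and FAAP20 had log2 -0.37 and FANCC 0.34. Of 18 genes of strand exchange and single-strand binding tested, 7 rose (38.9%) and the other 11 did not pass. SEM1, which binds BRCA2, and FIGNL1, an ATPase that acts in recombination, both had log2 0.39.

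Of 14 genes of crosslink unhooking, bypass and deubiquitination tested, 6 rose (42.9%) and 1 fell (7.14%). USP1, the enzyme that takes ubiquitin off FANCD2, had 265 ± 10.2 CPM in E4F1 shRNA cells and 152 ± 24.2 CPM in control cells (SD, n = 3 each, log2 0.81, edgeR adjusted p = 1.73e-06). It kept its call in the fit with the 70 cell cycle genes (log2 0.48, edgeR adjusted p = 9.89e-05). Its cofactor WDR48 had log2 0.30, and ERCC1, a subunit of the unhooking nuclease, fell (log2 -0.31). WDR48 and ERCC1 lost their calls in the fit with the cell cycle genes (edgeR adjusted p = 0.185 and 0.168). Of the other genes named from these repair lists, FAAP100 and CHEK1 kept theirs, and FAAP20, FANCC, SEM1, FIGNL1, RADX, RIF1, FBH1, BRCC3, TOPBP1, PARP1, DCLRE1C and PARP2 did not.

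Of 15 antagonists of recombination tested, 3 rose (20%) and 2 fell (13.3%), with RADX at log2 0.67, RIF1 at 0.30 and FBH1 at -0.23. Of 16 genes of damage signalling at breaks, 2 rose (12.5%) and 1 fell (6.25%), with CHEK1 at log2 -0.34, BRCC3 at 0.29 and TOPBP1 at 0.25. Of 14 genes of end joining, 4 rose (28.6%) and 1 fell (7.14%), with PARP1 at log2 0.21, DCLRE1C at 0.30 and PARP2 at 0.28. Over all genes tested 14.4% rose and 14.4% fell. In the antagonist, signalling and end joining lists the median log2 fold changes were 0.07, 0.083 and 0.072, nearer to the -0.0096 of all genes tested than the 0.25 of the 33 genes. Of 20 E2F, DREAM and FOXM1 regulators, which control cell cycle genes, 10 rose (50%) and 1 fell (5%). Named from that list were LIN54 at log2 0.49, RBL1 at 0.52 and MYBL1 at 0.45.

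The motif windows shown above were set against the calls as a description. TGACGT stood near the start of 8 of the 28 genes with a window (28.6%), where 13.8% of 11400 genes tested with a window held it. All 8 were among the 17 of these 28 that rose, and of the 20 without the motif 9 rose and 2 fell. Of the 8 calls, those of BRCA1, EXO1 and RMI1 stood without each library in turn, the other 5 were lost without at least 1 library, and 0 stood with the cell cycle genes in the edgeR fit. Over the 11400 genes tested with a window, 16.98% of those with the motif rose and 14.9% fell, against 15.9% and 15.05% of those without it. Genes with several annotated starts had several windows, and a match in any of them counted.

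E2F-type letters (TTTCCCGC, TTTGGCGC, TTTCGCGC or TTTGCCGC, both strands) stood in 5 of the 28 windows (17.9%), those of EXO1, FANCD2, GEN1, RMI1 and XRCC2, where 6.46% of genes tested held them. All 5 genes rose, and of the 23 genes with a window but without these letters 12 rose and 2 fell. The calls of FANCD2 and XRCC2 were lost without some single libraries. With the cell cycle genes in the edgeR fit 0 of the 33 genes rose, where 3.74% of all genes tested rose. Over the 11400 genes tested with a window 19.8% of those with these letters rose, against 15.8% of those without. The element TTTGAA stood in the windows of BRIP1 and UBE2T (7.14%, where 14.1% of genes tested held it) and TTCGAA in that of GEN1 (3.57%, where 2.39% held it). CCAAT stood in 13 windows (46.4%, where 42.8% held it). In the windows of the 33 genes, matches of different motifs overlapped in 0 cases.

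A heptamer, CTTATCT, was searched in the 3' untranslated region (UTR) as a description. Of genes tested with it 38.3% rose and 8.25% fell, against 13.8% and 16.5% of those without it. Its source is not given and its choice may rest on these same data, so these shares are not support for a role. They were not adjusted for the length or base content of the 3' UTR. The heptamer was searched in the longest annotated 3' UTR of each gene on the strand of the transcript. Of the 33 genes only BARD1 and RAD52 held it (6.06%, where 11.8% of 13093 genes tested held it). BARD1 rose and RAD52 fell, and the other 19 genes that rose had no copy in that region.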

How the data were processed

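The authors deposited raw read counts, as a table for each library, in the layout of STAR gene counts, with bcl2fastq 2.20, STAR 2.5.1b and GRCh38 named per the submitters' processing notes. The annotation release was not stated. The reverse-strand column was used; unmapped, multimapping, unassigned and ambiguous reads (27.1% to 31.7% of each table) stayed out. Identifiers were matched without version to GENCODE 29 (57881 of 58219), with coordinates counted from 1.

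The test was edgeR's two-sided quasi-likelihood F-test of group (edgeR 4.0.16 in R 4.3.3), after filterByExpr and TMM, with Benjamini-Hochberg adjustment over 15765 genes and a threshold of 0.05. CPM are TMM-scaled. The p-values measure the spread between 3 pools per group; a single value allows no exact permutation p below 0.1. The steps were checked on simulated counts.

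The 33 genes and all lists were chosen with earlier results of these data known. Values per library are given for the 3 genes of each role with the smallest adjusted p, for genes that fell and for those that lost a call without control library 2; RAD50 and RMI2 were added after their values were seen, and other lists name their 3 smallest. A few genes and sequences were left out here. Alternatives were DESeq2 1.42.0, limma-voom (limma 3.58.1), other scalings and filters, counts ignoring strand, a cell cycle score (mean log2 CPM, prior count 2), the replicate number as a block, and each library left out.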

Additional observations from a re-analysis of the deposited data

Results flagged for a closer look

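Reads on the strand opposite to a gene were not part of the comparisons. Scaled to depth, all 3 E4F1 shRNA libraries had more of them than any control for 3 of the 33 genes. At least 20 such reads in all were required, which some of the 33 genes did not have. The share of all genes tested with this order on the opposite strand was not computed, so the count has no background. DNA2 had 8, 11 and 5 of them in E4F1 shRNA libraries (24 in all), against 2, 2 and 0 in control libraries. GEN1 had 11, 6 and 9 in E4F1 shRNA libraries (26 in all), against 2, 2 and 2 in control libraries. RAD51AP1 had 20, 14 and 17 in E4F1 shRNA libraries (51 in all), against 9, 13 and 10 in control libraries. They amounted to 0.713% of reads on the gene's own strand in E4F1 shRNA libraries and 0.169% in control libraries for DNA2, to 0.943% in E4F1 shRNA and 0.295% in control libraries for GEN1, and to 1.28% in E4F1 shRNA and 1.16% in control libraries for RAD51AP1. The differences were not tested, and all 3 genes also rose on their own strand.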

How the results depend on the processing

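With each library left out in turn, 3031 to 5370 genes changed in all (edgeR). Of the 33 genes 12 to 20 rose, where 9.94% to 17.6% of all genes tested rose. Between 0 and 1 of the 33 fell, 17 to 27 lay above all controls and 2 to 3 below. Among these fits, the shares of all genes tested for those counts are given only without control library 2. They were 15.8% for falls, 28.4% for lying above and 27.4% for lying below. The median log2 fold change of the 33 was 0.17 to 0.37. The 0 falls came without control library 1, control library 2 or E4F1 shRNA library 2, each with 2 down at an unadjusted p under 0.05. With the cell cycle score in the fit 986 genes changed. Of the 33 genes 0 rose (3.74% of all genes tested) and 1 fell (2.52% of all genes tested), and their median was 0.052. The number that fell was 1 with no low-count filter and 1 with DESeq2, TOP3A having lost its call in both. For both of these fits the share of all genes tested that fell is not given. The cause of these changes was not tested. Other scalings and limma-voom kept all 20 rises; without a low-count filter RAD51C lost its call and ignoring strand EME1 did. The ratios to each control library were also computed with DESeq2 size factors, with library totals and ignoring strand, alternatives chosen after seeing the data, and moved by less than the spread between libraries.

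Some log2 fold changes turned in sign. With the score these were PALB2 (-0.079), MRE11 (-0.043), RAD54L (-0.093), RAD54B (-0.040), RMI2 (-0.28), MUS81 (-0.091), EME1 (-0.015), FANCD2 (-0.077) and FAN1 (-0.084). Ignoring strand they were RAD50 (-0.0018) and FAN1 (-0.014). With each library left out, RAD50 ran from -0.055 (without control library 1) to 0.11 (without control library 3) and was also below 0 without E4F1 shRNA library 3, RMI2 ran from -0.022 to 0.23 and FAN1 from -0.0031 to 0.11, each lowest without control library 3 and highest without control library 2.

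With the replicate number as a block 20 of the 33 genes rose and 2 fell, the same genes, and 4865 genes changed in all. Samples with the same number did not deviate together (correlations 0.007, 0.047 and 0.048 over 15765 genes), so the numbers are not taken as pairs. Depth limits RAD50 and RAD54B most, at 52 to 70 and 35 to 60 reads per library.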
